A study of Mus musculus with 8 samples.

Results

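The 6 genes described here encode 2 kinds of proteins of cell surface and extracellular proteolysis. Adam19, Adam8, Adam9 and Adam15 encode membrane-anchored proteins of the ADAM family, and Timp1 and Timp2 encode secreted tissue inhibitors of metalloproteases. The 6 genes were taken by symbol from the array annotation, where they stand for 6 of 16593 named genes and have 9 of 25697 probes. The set was chosen by the measured day 3 difference of Adam19 and Timp1, which were higher with the Notch ligand in an earlier look at the same arrays, together with family members on the array. For all 6 genes the day 3 difference between the stimuli is therefore given as a description, without a test.

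The samples came from C57BL6/NCrl mice. Naive CD4+ T cells were sorted from lymph nodes and spleen as CD62L+ and negative for CD44, CD25 and DX5. All were activated through CD3e, with the antibody bound to the plate per the labels' protocols, and through CD28, with the antibody in solution. The design text of the series calls the CD3 antibody soluble instead. The same plates were coated with Delta4-Ig, which joins the Notch ligand Delta4 to an Ig part, or with an equal amount of control Ig. The groups were Delta4-Ig day 3 and control Ig day 3, each with mouse 1 and mouse 2, and Delta4-Ig day 1 and control Ig day 1, each with mouse 1 alone. Mouse 1 had a second, technical array with each stimulus at day 3, so the 8 arrays stand for 6 samples from 2 mice. The ages of the mice were not given in the sources used here, and only day 3 has replicates.

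ADAM proteases cut the ectodomains of membrane proteins close to the cell surface, a step called shedding, which releases cytokines and receptor fragments and removes adhesion molecules. Notch receptors depend on such a cut, made mainly by ADAM10, after they bind a ligand. TIMPs block the active site of matrix metalloproteases and of some ADAMs, and TIMP1 also acts as a cytokine-like factor on several cell types. In mouse development ADAM19 is needed for heart valve formation, and in cell culture it can cut neuregulin and the TNF family cytokine RANKL.

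For Adam19 and Timp1, the genes with the largest differences between the stimuli, the DNA around the start sites is shown with short motifs marked. RefSeq windows on GRCm38.p6, from 250 bases before to 50 after a start site, were found for 5 of the 6 genes, 7 windows in all. They were searched on both strands for TGGGAA, the core recognised by the Notch transcription factor RBPJ, for TGANTCA, the palindromic AP-1 site, and for TGAGTAA, an AP-1 variant that was added after the Timp1 window had been read. The matches, in capitals, did not overlap each other, and a TGANTCA match reads as one on both strands. Adam19 has 3 annotated start sites, and the window that held a match lies at chr11:46055734-46056033 on the plus strand. The Timp1 window lies at chrX:20869916-20870215 on the plus strand.
Adam19: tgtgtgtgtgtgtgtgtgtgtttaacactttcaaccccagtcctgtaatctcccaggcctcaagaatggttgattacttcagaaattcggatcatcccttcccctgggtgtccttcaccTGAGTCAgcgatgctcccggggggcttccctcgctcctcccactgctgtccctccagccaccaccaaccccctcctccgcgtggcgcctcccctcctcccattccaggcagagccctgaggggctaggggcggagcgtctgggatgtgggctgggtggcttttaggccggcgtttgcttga
Timp1: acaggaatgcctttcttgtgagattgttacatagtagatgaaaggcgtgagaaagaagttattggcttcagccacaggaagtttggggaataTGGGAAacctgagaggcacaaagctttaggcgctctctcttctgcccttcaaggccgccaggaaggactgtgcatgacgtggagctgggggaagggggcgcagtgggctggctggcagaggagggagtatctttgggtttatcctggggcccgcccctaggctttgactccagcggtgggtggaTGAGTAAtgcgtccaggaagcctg
The Timp1 window held 1 TGGGAA, which began 158 bases before the start site, and 1 TGAGTAA, which began 26 bases after it. The Adam19 window shown held 1 TGANTCA, as TGAGTCA, 131 bases before its start site, and none of the 3 Adam19 windows held TGGGAA. The single Adam8 window also held 1 TGGGAA, although Adam8 was near background on most arrays. Among 32851 windows of the same length, 25.6% held TGGGAA, 7.81% held TGANTCA and 2.68% held TGAGTAA. A match describes letters in the DNA and not binding.

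Adam19 was about 9-fold higher with Delta4-Ig than with control Ig at day 3, and Timp1, close to background with control Ig, was detected on every Delta4-Ig array at that time. Timp2 and Adam9 were also higher with Delta4-Ig, by smaller amounts, and both Delta4-Ig samples lay above both control samples for these 4 genes. Adam15 followed the mouse more than the stimulus, and Adam8 was barely detected. Levels below are the authors' processed log2 intensities, where a detection p-value under 0.01 counts as detected. Values of different probes are not compared with each other, since each probe binds with its own strength. On bulk RNA, more cells that express a gene and more RNA per cell cannot be told apart.

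Adam19 lies at chr11:46054502-46147347. Its probe, detected on all 8 arrays, gave 10.78 and 10.90 on the arrays of mouse 1 and 10.68 in mouse 2 with Delta4-Ig at day 3, against 7.81 and 8.02 in mouse 1 and 7.27 in mouse 2 with control Ig. The 3 Delta4-Ig arrays lay close together and above all control arrays. In the deposited unprocessed intensities the same arrays read 2444, 2172 and 1504 with Delta4-Ig against 367, 396 and 287 with control Ig. Over the mice the level averaged 10.76 ± 0.12 with Delta4-Ig, against 7.59 ± 0.46 with control Ig (SD, n = 2), a difference of 3.17 on the log2 scale or 8.997-fold. The difference was 2.93 in mouse 1 and 3.41 in mouse 2. Adam19 ranked 19th from the highest of 7504 genes by this difference. Without background correction the difference was 2.48.

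Timp1 lies at chrX:20870166-20874737 and has 2 probes. Its main probe read 8.59 and 9.99 on the arrays of mouse 1 and 11.44 in mouse 2 with Delta4-Ig at day 3, against 6.13 and 6.26 in mouse 1 and 6.09 in mouse 2 with control Ig. All 3 Delta4-Ig arrays detected it and 1 of 3 control arrays did, so the comparison is with a level partly at background. The groups did not overlap, and the Delta4-Ig samples themselves were spread widely, at 10.37 ± 1.52 against 6.15 ± 0.07 with control Ig (SD, n = 2). The difference was 4.22, or 18.6-fold, and it was 3.09 in mouse 1 and 5.35 in mouse 2. The other Timp1 probe read 8.42, 9.96 and 11.37 with Delta4-Ig and was detected on 0 of 3 control arrays. On the mean over the mice this makes it at least 17.4-fold higher, which is not a bound for each animal. Against the undetected control readings it differed by 3.22 in mouse 1 and 5.99 in mouse 2. Both probes gave the same order of arrays with Delta4-Ig.

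The spread of Timp1 with Delta4-Ig was partly between arrays of the same animal. The technical arrays of mouse 1 differed by 1.41 on the main probe and 1.53 on the other, while the SD of such differences over all 10744 probes kept was 0.285. Only 5 of those probes differed by at least 1.41, and both Timp1 probes were among them. With control Ig the technical arrays differed by 0.13 and 0.03 on these probes. Both Delta4-Ig arrays of mouse 1 lay above both of its control arrays, and the size of the difference in that animal depended on which array was read.

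Timp2, the second TIMP, lies at chr11:118301061-118355411 and its protein both inhibits matrix metalloproteases and takes part in activating one of them, MMP2. Its probe read 7.13 and 7.21 in mouse 1 and 8.14 in mouse 2 with Delta4-Ig at day 3, against 6.29 and 6.90 in mouse 1 and 6.19 in mouse 2 with control Ig. The Delta4-Ig arrays lay above the control arrays, with a gap smaller than the spread within either group. The difference was 1.26, with 0.57 in mouse 1 and 1.94 in mouse 2, and it was 0.62 without background correction.

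Adam9, at chr8:24949611-25017040, encodes an ADAM protease that is made by many cell types. It read 8.93 and 8.54 in mouse 1 and 9.13 in mouse 2 with Delta4-Ig at day 3, against 7.85 and 8.08 in mouse 1 and 8.30 in mouse 2 with control Ig. The difference of 0.80 was nearly equal in the animals, at 0.77 in mouse 1 and 0.83 in mouse 2. It was larger than the SD within either group, 0.28 with Delta4-Ig and 0.24 with control Ig.

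Adam15, at chr3:89339640-89350028, encodes an ADAM protease with an integrin-binding RGD sequence in the human protein. Its main probe read 8.26 and 8.16 in mouse 1 and 9.54 in mouse 2 with Delta4-Ig at day 3, against 7.68 and 7.72 in mouse 1 and 8.70 in mouse 2 with control Ig. The groups overlapped, because mouse 2 stood above mouse 1 with either stimulus, by 1.33 with Delta4-Ig and 1.00 with control Ig. Within each mouse Delta4-Ig was higher, by 0.52 and 0.85. The other Adam15 probe was detected on 0 of 8 arrays, so its difference of -0.17 is one between background readings.

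Adam8, at chr7:139978932-139995207, encodes an ADAM protease of leukocytes. Its main probe was detected on 2 of 8 arrays, both of mouse 2 at day 3, at 6.30 with Delta4-Ig and 6.31 with control Ig. In mouse 1 it read 6.03 and 5.38 with Delta4-Ig against 5.24 and 5.15 with control Ig, none of them detected. The other Adam8 probe was detected on 0 arrays. No difference of Adam8 could be resolved at this signal, which does not show that its levels were equal.

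Across the 6 genes, 5 were higher with Delta4-Ig in both mice at day 3, as were 26.4% of 7504 genes, while 32.2% were lower in both. At least 2-fold in both mice were Adam19 and Timp1, 2 of 6, against 2.13% of all genes. For 4 of the 6 both Delta4-Ig samples lay above both control samples, against 12.6% of all genes. These shares stand beside counts from the contrast that led to the choice of the genes, so nothing is read from them. All 6 genes passed the detection filter through 7 of their 9 probes. Timp1 met the filter through the Delta4-Ig arrays at day 3, the group in which it was high. Adam8 met it through the day 3 arrays of mouse 2 and was not detected on the others.

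**Figure D1:**
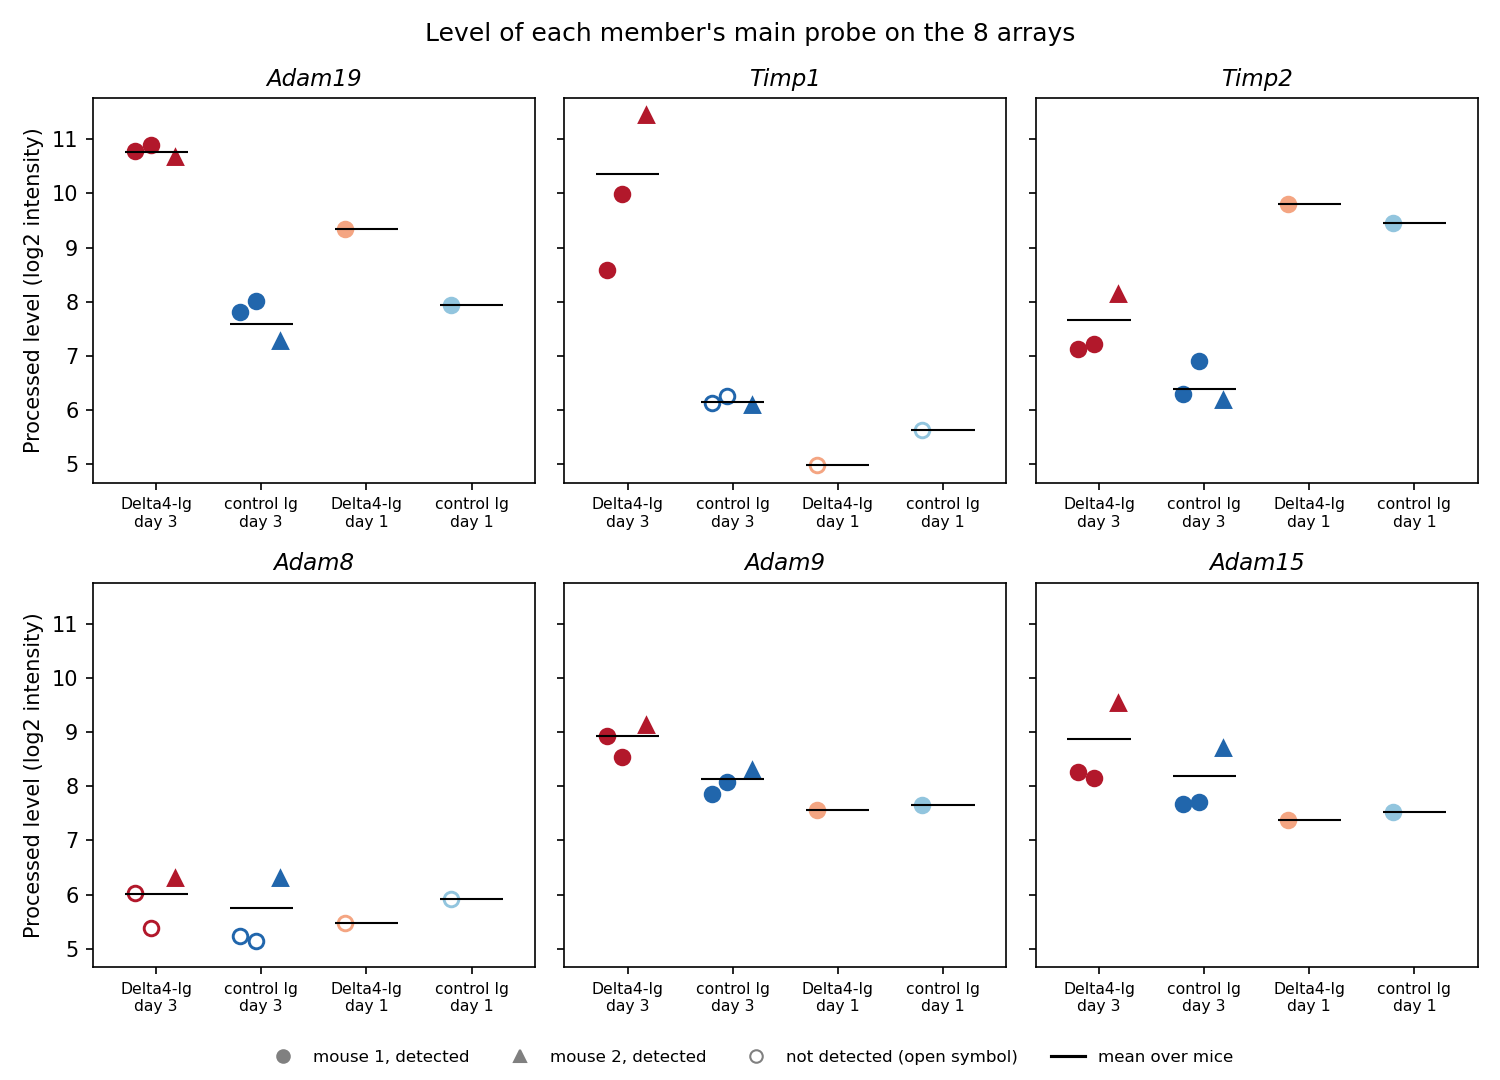
Processed log2 intensity of the main probe of each gene on the 8 arrays, by group of stimulus and day. Circles are mouse 1, triangles mouse 2, open symbols arrays without detection and bars the mean over mice. Adam19 and Timp1 stand highest with Delta4-Ig at day 3, and Timp2 stands highest at day 1 with either stimulus.

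**Figure D2:**
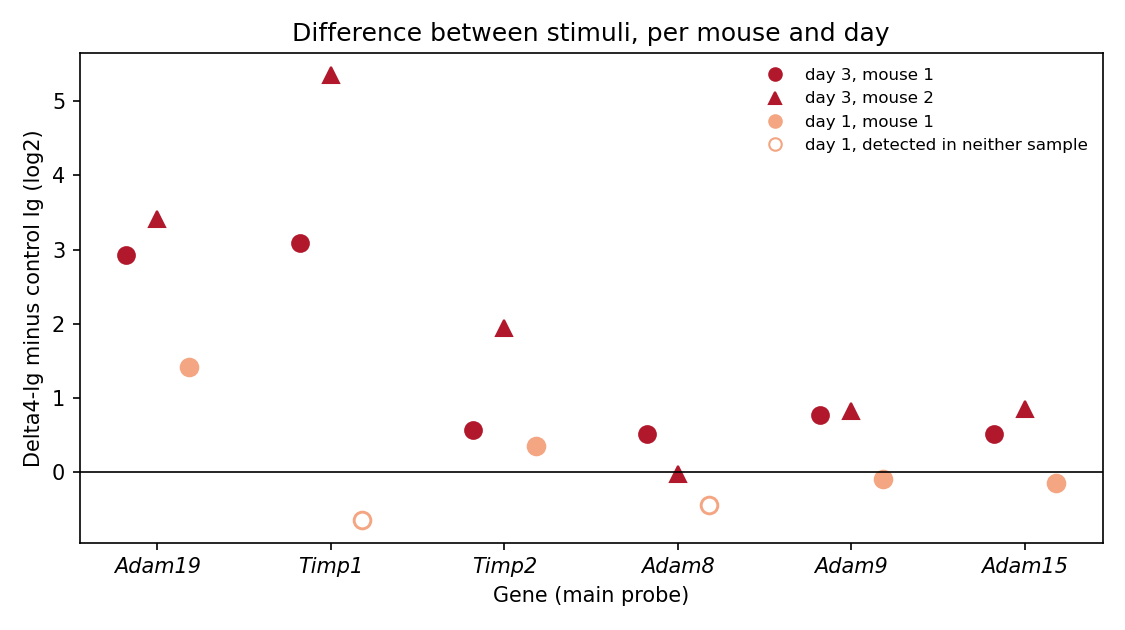
Delta4-Ig minus control Ig on the log2 scale for each gene, per mouse at day 3 and for mouse 1 at day 1. Adam19 is above 0 at each point, with 2.93, 3.41 and 1.42, and the open symbols mark genes detected in neither day 1 sample.

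Day 1 was measured in 1 sample per stimulus, so it has no replicate check and no test. Adam19 was the one gene of the set with a 2-fold difference at that time. It read 9.35 with Delta4-Ig and 7.93 with control Ig, a difference of 1.42 or 2.67-fold, and it ranked 24th from the highest of 6837 genes detected in either sample. At least 2-fold higher were 0.936% of those genes and at least 2-fold lower 0.600%. The Adam19 difference was 1.04 when background was not corrected. Timp2 read 9.81 with Delta4-Ig and 9.46 with control Ig, Adam9 read 7.56 with Delta4-Ig and 7.65 with control Ig, and Adam15 read 7.37 with Delta4-Ig and 7.52 with control Ig. With 1 sample per stimulus, the spread between cultures at day 1 is unknown, and no difference is read from these 3 genes. Timp1 and Adam8 were detected in neither sample, so they have no order between the stimuli at day 1.

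The order of the groups differed between the genes. For Adam19 it ran from 10.76 with Delta4-Ig at day 3 over 9.35 with Delta4-Ig at day 1 and 7.93 with control Ig at day 1 to 7.59 with control Ig at day 3, and the last 2 differed by less than the SD of 0.46 of the control samples. For Timp2 both day 1 samples stood above all day 3 samples. For Adam9 it ran from 8.93 with Delta4-Ig at day 3 over 8.13 with control Ig at day 3 to 7.65 with control Ig and 7.56 with Delta4-Ig at day 1. Timp1 and Adam15 had their highest mean with Delta4-Ig at day 3, and the day 3 samples of Adam15 overlapped.

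Between the days Timp2 fell, with a log2 change of -2.75 ± 0.40 (SE, limma, adjusted p = 0.00994 in the fit blocked on mouse). The SE and p hold no spread between day 1 cultures, or between animals in the change over time, since only day 3 has replicates. Without the block the adjusted p was 0.105, and the blocked call was lost without the detection filter (adjusted p = 0.119). Within mouse 1 Timp2 was 6.23-fold lower at day 3 than at day 1 with Delta4-Ig and 7.27-fold lower with control Ig. Mouse 2, measured at day 3 alone, read 8.14 with Delta4-Ig and 6.19 with control Ig, below both day 1 samples.

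For Timp1 and Adam19 the change between the days contains the day 3 level with Delta4-Ig by which they were chosen, so it is described without a test. With Delta4-Ig the day 3 mean of Timp1 over both mice was at least 19.2-fold above the day 1 sample, where it was not detected. That sample is of mouse 1, so the bound also contains the difference between the mice. At day 3 mouse 1 averaged 9.29 and mouse 2 read 11.44, against a lowest detected signal of 6.10 on the day 1 array. The bound within mouse 1 is therefore smaller. With control Ig no fold is given, since neither the mouse 1 arrays at day 3 nor the day 1 sample detected it. Within mouse 1 Adam19 was 1.49 higher on the log2 scale at day 3 with Delta4-Ig and differed by -0.02 with control Ig. The difference between the stimuli in this change was not tested.

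Adam9 and Adam15 did not pass for time. In the blocked limma fit the day 3 minus day 1 value was 0.74 ± 0.31 for Adam9 (adjusted p = 0.197) and 0.51 ± 0.31 for Adam15 (adjusted p = 0.382). Within mouse 1 Adam9 differed by 1.17 with Delta4-Ig and 0.31 with control Ig, and Adam15 by 0.84 with Delta4-Ig and 0.17 with control Ig. Adam8, undetected at day 1, was -0.24 with the block and 0.18 without it. Of Timp2, Adam8, Adam9 and Adam15, Timp2 alone was called with the block. Timp1 was also past the threshold there, which is no independent test, since its change contains the level it was chosen by. Of 7504 genes, 5.41% were higher and 2.89% lower with the block, 8.30% in all. By probe the shares were 4.85% higher and 3.39% lower, 8.24% in all. Day 1 was measured in mouse 1 alone, so the blocked estimate over time rests on that animal and the unblocked one also contains the difference between the mice.

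**Figure D3:**
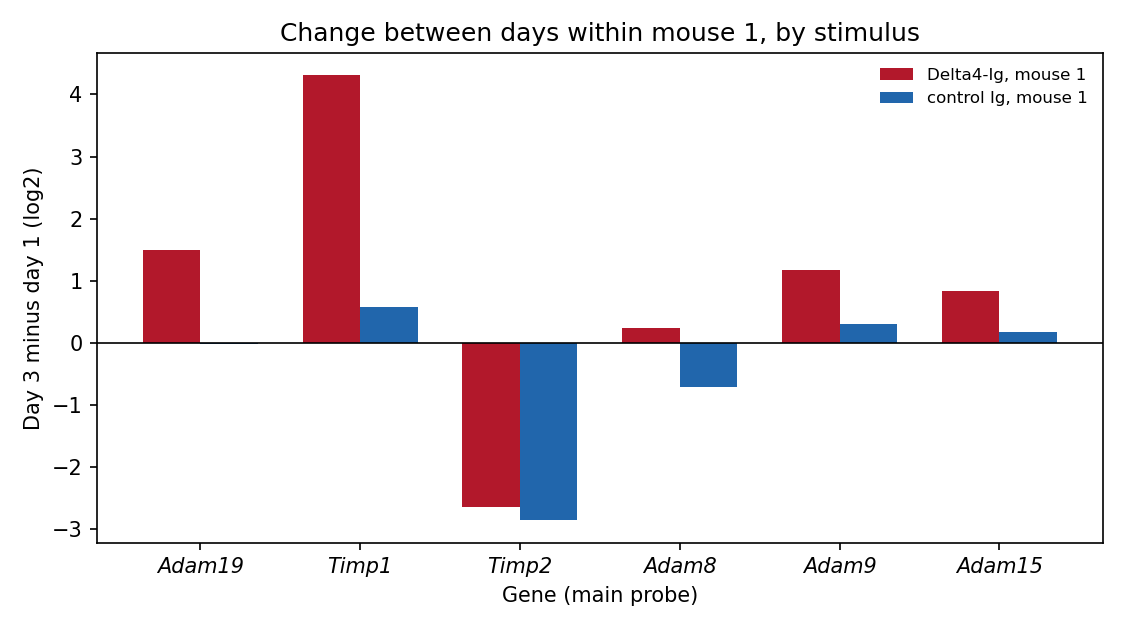
Day 3 minus day 1 within mouse 1, on the log2 scale, for each gene with Delta4-Ig and with control Ig, as values of single samples without error bars. Timp2 is lower at day 3 with either stimulus. The Timp1 bar with Delta4-Ig starts from an undetected day 1 reading, its control bar is a difference between undetected readings, and the control bar of Adam19 lies at -0.02.

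The genes whose pattern was closest to Adam19 and to Timp1 were found by the root mean square difference of log2 levels over the 6 samples, after each gene was centred on its mean. The measure contains the day 3 difference by which Adam19 and Timp1 were chosen, so the closest genes are given as a description. The closest of 7503 genes to Adam19 was Hey1, a transcriptional repressor gene induced by Notch, at 0.53. Izumo1r, the folate receptor 4 gene of regulatory T cells, followed at 0.59, Frmd4b at 0.64, Tha1, a threonine aldolase gene, at 0.65, and Hlx, a homeobox gene, at 0.66. Hey1 read 7.5 and 8.33 with Delta4-Ig against 5.13 and 5.42 with control Ig in mouse 1 and mouse 2 at day 3, and 6.07 against 4.94 at day 1. Hey1, Frmd4b and Hlx were detected on 3 of 8 arrays each, so most of their values are background readings.

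The closest to Timp1 was Gcnt1, a glycosyltransferase gene of O-glycan synthesis, at 0.42. Gnb5, a G protein subunit gene, followed at 0.61, Ndrg1, a gene of the stress and hypoxia response, at 0.62, Cstdc4, of the cystatin family, at 0.71, and Cysltr1, a leukotriene receptor gene, at 0.74. Gcnt1 read 9.90 and 10.75 with Delta4-Ig against 6.44 and 5.92 with control Ig in mouse 1 and mouse 2. Ndrg1 read 10.52 and 13.12 with Delta4-Ig against 8.01 and 9.28 with control Ig, and it was the only one of these 5 detected on all 8 arrays. By the same measure Adam19 and Timp1 were 1.52 apart. Adam9 and Adam15 were the closest pair within the set, at 0.34, and Timp1 and Timp2 the farthest, at 2.92.

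Few genes of the lists around proteolysis passed the test at day 3, and those that did encode shed membrane proteins, not proteases or inhibitors. Of 125 genes in 9 lists, 108 had a probe and 38 were kept by the detection filter. Among the 38, 1 rose and 2 fell at day 3 with the mouse as a block and 35 did not pass, against 0.493% of 7504 genes higher and 0.333% lower, 0.826% in all. By probe the shares were 0.465% higher and 0.298% lower, 0.763% in all. Their median difference was -0.15, and that of all genes -0.05. In the unblocked limma fit 0 of the 38 passed, and 6 had an unadjusted p under 0.05. The lists were chosen with earlier results of these data known. Nothing is therefore read from their counts beside these shares, here or between the days, and the p-values of their genes are no independent support.

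All 3 calls were genes of membrane proteins that are known to be shed, a list of 16 genes of which 14 were on the array and 10 were kept. Tnfsf11, which encodes RANKL, read 9.18 and 7.35 with Delta4-Ig against 11.39 and 10.67 with control Ig in mouse 1 and mouse 2 at day 3. The groups did not overlap, and Tnfsf11 fell by 2.77 on the log2 scale, or 6.82-fold (SE 0.37, limma, blocked adjusted p = 0.0247, and 1 unblocked). Cd44, the hyaluronan receptor gene, read 9.19 and 8.55 with Delta4-Ig against 11.51 and 11.15 with control Ig and fell by 2.46 (SE 0.31, limma, blocked adjusted p = 0.0196, and 0.738 unblocked). Of 5 other Cd44 probes none was kept, and 2 were detected on 1 array each. Havcr2, the gene of the inhibitory receptor TIM-3, read 10.65 and 10.05 with Delta4-Ig against 4.96 and 6.66 with control Ig, where 1 of 3 arrays detected it. Havcr2 rose by 4.54 (SE 0.53, limma, blocked adjusted p = 0.0168, and 0.648 unblocked), and its other probe differed by 5.03. Havcr2 met the detection filter through the Delta4-Ig arrays at day 3, the group in which it was high, so its p-value is no independent support. All 3 calls were lost without background correction, at adjusted p = 0.106 for Cd44, 0.141 for Havcr2 and 0.113 for Tnfsf11, and also without the detection filter.

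The other 7 genes of that list did not pass. Il1r2, the decoy receptor of IL-1, differed by 1.52 in mouse 1 and 5.04 in mouse 2, and Lag3, an inhibitory receptor gene, by 1.10 and 1.58. Fasl, the gene of the death ligand, differed by -1.55 and -0.77 and Tnf by -0.91 and -0.90. Notch1, the receptor gene, differed by 0.03 and -0.68. The list's median was -0.28, with 3 genes higher and 5 lower in both mice.

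Among 9 other ADAM genes on the array, Adam17 alone was kept. It encodes the main sheddase of TNF, was detected on all 8 arrays, and read 10.15 and 9.89 with Delta4-Ig against 10.50 and 10.11 with control Ig in mouse 1 and mouse 2 at day 3. Its difference of -0.29 did not pass (limma adjusted p = 0.819 with the block). The probe of Adam10, the protease that cuts Notch, was detected on 0 arrays, which says nothing about its mRNA beyond the reach of that probe. Of 14 ADAMTS genes 0 were kept, and of 19 matrix metalloprotease genes 2 were kept, Mmp1a at -0.14 and Mmp28 at -0.64. The gelatinase gene Mmp9, whose protein TIMP1 binds, was detected on 0 arrays. Of 7 other inhibitor genes Reck alone was kept, a membrane-anchored inhibitor of metalloproteases, at 0.35 with -0.18 in mouse 1 and 0.87 in mouse 2.

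Of the genes for the maturation and transport of ADAMs, 6 were kept, 0 passed the blocked test at day 3, and the median difference was 0.35. Furin, a proprotein convertase gene that activates ADAMs, differed by 1.28 in mouse 1 and -0.42 in mouse 2. Frmd8, which stabilises the iRhom and ADAM17 complex, was detected on 2 Delta4-Ig and 0 control arrays at day 3. On the mean over the mice it was at least 1.33-fold higher, without passing. Between the days Rhbdf1, the gene of iRhom1, rose (limma, blocked adjusted p = 0.0166, and 0.393 unblocked). Rhbdf1 read 7.74 with Delta4-Ig and 8.03 with control Ig in mouse 1 at day 3, against 6.03 and 5.78 at day 1, where it was not detected. In mouse 2 at day 3 it read 6.07 with Delta4-Ig, close to the day 1 reading, and 7.15 with control Ig. The integrin and TIMP1-binding list had 0 of 6 kept genes past the threshold at day 3 and a median of -0.33. Itgb1, the integrin beta 1 chain gene, differed by -1.40 and -1.36, and Cd63, the gene of a TIMP1-binding tetraspanin, was not kept. Of the plasminogen activator list Plaur alone was kept, the gene of the urokinase receptor, detected on 0 of 3 Delta4-Ig and 3 of 3 control arrays at day 3, and it did not pass.

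Of 17 genes of cathepsins and their inhibitors 11 were kept, and at day 3 none passed the blocked test, with a median difference of 0.35. Ctsb, a lysosomal cysteine protease gene, differed by 0.62 in mouse 1 and 0.81 in mouse 2. Ctsw, a protease gene of cytotoxic lymphocytes, differed by 0.68 and 4.32. Between the days Ctse, an aspartic protease gene detected on 4 of 8 arrays, fell by 3.37 on the log2 scale (SE 0.37, limma, blocked adjusted p = 0.00351, and 0.591 unblocked). The lower values were those of mouse 1, 4.92 with Delta4-Ig and 5.10 with control Ig at day 3, against 8.23 and 8.52 at day 1. Mouse 2 at day 3 read 8.85 with Delta4-Ig and 7.96 with control Ig, near the day 1 levels. Over all 38 list genes 4 rose and 1 fell between the days with the block and 33 did not pass, beside the 5.41% and 2.89% of all genes, and in the unblocked fit of limma 0 passed, where 8 had an unadjusted p under 0.05. Besides Rhbdf1 those that rose were Cd44, Havcr2, detected at day 1 in neither sample, and Cd74, the invariant chain gene whose protein binds TIMP1 in human cells. In mouse 1 Havcr2 read 10.65 with Delta4-Ig and 4.96 with control Ig at day 3, against 5.14 and 4.74 at day 1. Its change between the days thus contains the day 3 level with Delta4-Ig. With Delta4-Ig, mouse 2 at day 3 read 8.55 for Cd44 and 7.5 for Cd74, against 8.65 and 7.91 in mouse 1 at day 1, so it was not higher there. With control Ig, mouse 2 at day 3 read 11.15 for Cd44 and 9.3 for Cd74, above the 9.44 and 8.37 of mouse 1 at day 1.

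**Figure D4:**
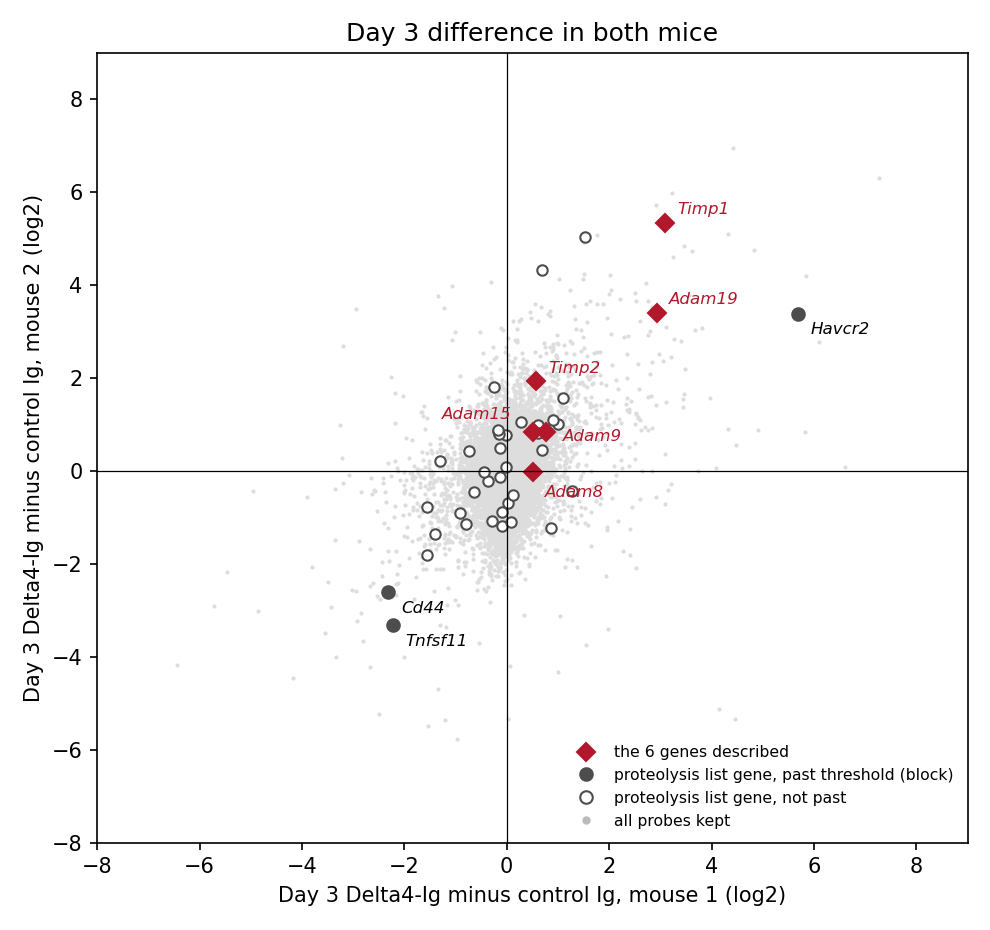
Day 3 difference between Delta4-Ig and control Ig in mouse 1 against that in mouse 2, on the log2 scale. Diamonds are the main probes of the 6 genes described, circles the 38 kept genes of the proteolysis lists, filled where past the threshold with the mouse as a block, and dots all 10744 probes kept. Timp1, Adam19 and Havcr2 lie high in both mice, and Cd44 and Tnfsf11 low in both.

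The arrays were checked for the labelled cell type and for other cells that make TIMPs or ADAMs. All 8 T cell marker genes on the array, among them Cd3e and Cd4, were detected on all 8 arrays. Of 7 stromal markers, which include the collagen genes Col1a1 and Col3a1, 7 were detected on 0 arrays, and their summed processed intensity ran 206 to 212 with Delta4-Ig at day 3, 204 to 212 with control Ig at day 3, 207 with Delta4-Ig at day 1 and 221 with control Ig at day 1. Of 5 myeloid markers 4 were detected on 0 arrays, and Adgre1 was detected on 2 control arrays at day 3. Of 6 B cell markers 0 were kept. Cd8b1 was detected on all 8 arrays and differed by 0.44 between the stimuli at day 3 without passing, while Cd8a was detected on 0. Eomes, placed here among markers of NK cells and also made by T cells, fell at day 3 (limma, blocked adjusted p = 0.0159, and 0.608 unblocked), with 5.43 and 0 of 3 arrays detected with Delta4-Ig against 8.19 and 3 of 3 arrays with control Ig. The other 3 of 4 NK markers were detected on 0 arrays. Of 5 dendritic cell markers 3 were detected on 0 arrays. Zbtb46 was detected on 0 Delta4-Ig and 3 control arrays at day 3, and Siglech, detected on 5 of 8 arrays, differed by -0.92 in mouse 1 and 0.27 in mouse 2. Of 4 endothelial markers 3 were detected on 0 arrays and Pecam1 on all 8. The part of other cells in the results was not tested further. Per array, 34.8% to 41.0% of the probes were detected.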

How the data were processed

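RNA of naive mouse CD4+ T cells was hybridised to 8 Illumina BeadChip arrays. The authors deposited linear probe intensities, neither background-subtracted nor normalized, each with a detection p-value, per the file headers and the values. The authors also deposited processed log2 values, whose scale and centring are not stated. Those differed by at most 0.0417 from normexp background correction and quantile normalization with an offset of 16 computed here (neqc of limma), correlated with them at 1.00 on each array and had a median of 5.28 on each, so they were read as such and used as the main values, with direction not at issue on 1-colour arrays. Per the submitters' processing notes the tools were GenomeStudio and limma, with no version or step stated.

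Probes with a detection p-value under 0.01 on at least 2 arrays were kept, 10744 of 25697. The annotation named 1 gene for 23978 probes and left 1719 unnamed here. A gene was represented by its kept probe with the highest mean, which gave 7504 genes. Technical arrays were averaged. A linear model with a mean for each of the 4 groups (lmFit, eBayes, limma 3.58.1, R 4.3.3) had no term for the mouse and used Benjamini-Hochberg adjustment over all probes kept with a threshold of 0.05. It was refitted with the mouse number as a block. That number marks the same animal per the labels, and the difference between the mice correlated at r = 0.6075 between the stimuli over the probes kept. The first fit had 2 residual degrees of freedom and the second 1. In both fits these come from the day 3 samples, since each day 1 group has 1 sample. The words rose and fell are used of probes past the threshold with the block. Over all 10744 probes kept, mouse 2 minus mouse 1 had an SD of 1.06 for Delta4-Ig and 0.746 for control Ig. The number of arrays limits the precision. Where no array of a group detected a probe, a fold is a bound, set per array by the lowest detected signal or by the probe itself if that was higher. The bound uses the mean over the mice at day 3 and need not hold in each animal.

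The genes named were the 6 members, list genes past the threshold in either fit, up to 4 list genes by level or by size of difference, and the 5 closest genes to Adam19 and to Timp1. Others that the text names, such as Adam10, Mmp9 and Cd63, were chosen for their known role. The members and lists were chosen with earlier results of these data known. The fits were tested on simulated data.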

Additional observations from a re-analysis of the deposited data

Results flagged for a closer look

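Adam9 and Adam15 were higher with Delta4-Ig in both mice at day 3, by 0.80 and 0.68 on the log2 scale. In the single pair of day 1 samples the values were -0.09 for Adam9 and -0.15 for Adam15, from which no difference is read. Day 1 had 1 sample per stimulus, and the difference between the days was not tested.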

How the results depend on the processing

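The number of probes past the threshold at day 3 was 0 without the block (limma, 302 at an unadjusted p under 0.05) and 82 with the replicate block. Combining the block with another setting was an alternative chosen after seeing the data. It gave 76 with neqc at an offset of 16, 53 at an offset of 50, 264 with 75th percentile scaling, 32 with detection on all 8 arrays, 92 with the first array of mouse 1, and 0 without background correction or without the detection filter. Over time the count was 0 without the block (limma, 1493 at an unadjusted p under 0.05), 27 when the offset was 50, and 44 when detection on all 8 arrays was required. With the block it was 885, then 866, 683, 1458, 657 and 804 in the same order of settings, 271 without background correction and 0 without the detection filter. Leaving out 1 day 3 sample at a time, where the lone sample left is assumed to vary like the other groups and the block leaves no residual degrees of freedom, gave without the block 0 to 13 probes at day 3, with 13 without mouse 2 of control Ig, and 63 to 173 over time, with 173 without mouse 1 of control Ig. The proteolysis lists had 0 calls without the block, and 3 with it, also with neqc at either offset and with the first array. With the block there were 6 with 75th percentile scaling, 2 with detection on all 8 arrays, where Havcr2 was not tested, and 0 without background correction or the detection filter. Leaving out 1 sample gave 0 or 1, the 1 without mouse 2 of control Ig.

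The day 3 differences of Adam19, Timp1 and Timp2 were 2.48, 2.83 and 0.62 without background correction, and the second Adam15 probe gave -0.17. Leaving out 1 sample gave 2.85 to 3.49 for Adam19, 3.14 to 5.30 for Timp1, 0.77 to 1.74 for Timp2, 0.60 to 1.00 for Adam9, 0.02 to 1.35 for Adam15 and -0.31 to 0.80 for Adam8. At day 1 without background correction Adam19 differed by 1.04, Adam8 by -0.14 and Timp1 by -0.23, and Timp1 by -0.35 at an offset of 50, the last 2 genes being undetected there.

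Over time Timp2 passed with the block in each setting tried but the one without the detection filter, at -2.75, and at -1.84 without background correction, -2.44 at an offset of 50, -2.79 with 75th percentile scaling and -2.92 with the first array. The value of Timp1, which contains the level it was chosen by and is no independent test, was 2.44 with the block and 2.39 with 75th percentile scaling. It was past the threshold in both. With the block it did not pass at an offset of 50, without background correction, without the detection filter or with the first array. Without the block, leaving out 1 sample gave -2.85 to -2.37 for Timp2 and 2.41 to 3.49 for Timp1. The change of Adam8, mostly below detection, was reversed with the block, at -0.24. With the block it was -0.08 without background correction, -0.14 at an offset of 50, -0.29 with 75th percentile scaling and -0.06 with the first array, and without the block it ran from -0.10 to 0.46 when 1 sample was left out. The cause of these changes was not tested.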

Other observations

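Besides Timp1, the probes whose technical Delta4-Ig arrays of mouse 1 differed most at day 3 were those of Mcm6, a replication gene, at -1.50, of Tspan4, a tetraspanin gene, at -1.43, and of 1 unnamed gene at 1.48, each the second array minus the first. These were named after their values were seen. Timp1 was higher on the second array, by 1.41 and 1.53 on its probes. With the second array of mouse 1 alone the Timp1 difference over both mice was 4.54.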
